A study of Mus musculus with 9 samples.

Results

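The proteasome genes and the ubiquilins were described in mouse eggs: 52 of the 30153 genes counted, and of the 18483 that are annotated as protein coding. A gene was a member when it was protein coding and its symbol began with Psma, Psmb, Psmc, Psmd, Psme, Psmf or Psmg followed by a digit, or with Ubqln. The proteasome degrades proteins tagged with ubiquitin. Its barrel, the core particle, is built from rings of alpha subunits (Psma genes), which gate the entry, and rings of beta subunits (Psmb genes), some of which cut the substrate. The regulatory particle sits on the barrel. Its base holds the ATPases (Psmc genes) and ubiquitin receptors, and its lid holds the enzyme that removes ubiquitin. Ubiquilins are shuttle proteins with a ubiquitin-like domain that binds the proteasome and a ubiquitin-associated domain that binds ubiquitin. In the egg, degradation of cyclin B and securin by the proteasome ends the arrest at metaphase II.

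The members comprised 14 core subunits (7 alpha, 7 beta) and 17 subunits of the regulatory particle (9 in the base, 8 in the lid). There were also 3 base assembly chaperones (Psmd5, Psmd9, Psmd10), 4 core assembly chaperones (Psmg1 to Psmg4), 3 tissue-restricted core subunits (Psmb8, Psmb10, Psmb11), 6 other caps and regulators and 4 ubiquilins. The symbol rule also caught Psmc3ip, which is no subunit: it encodes HOP2, a protein of meiotic recombination. No protein-coding gene with the symbol Psma8 or Psmb9 was among the genes counted, so neither is described here.

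Poly-A RNA was sequenced from pools of metaphase II eggs of 4-week-old females of mixed genetic background, all Sycp3CreERT2/+; Rosa26nT-nG/+, so no group lacks Cre or the reporter. Sycp3CreERT2 is a tamoxifen-inducible Cre made under the control of a meiotic gene, and the reporter switches from nuclear red to nuclear green fluorescence once Cre has acted. Every female received 5 IU PMSG and, 48 h later, 5 IU hCG, and eggs were taken 13 h after hCG and stripped of cumulus cells with hyaluronidase. They were sorted by hand on fluorescence into GFP High (15 to 16 eggs per library), GFP Low (49 to 57) and RFP (87 to 100), with n = 3 libraries per group. When tamoxifen was given is not stated in the sources used here. Nothing states that replicates came from separate females, so the p-values measure only the spread between these libraries. Pool size differed between the groups without overlap, and pool size and group cannot be told apart.

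Library totals ran from 19381677 to 27746256 counts. Levels are given as CPM, the count as a share of the library total, scaled by TMM over the 9 libraries, and 3 counts, taken as the limit of detection, corresponded to 0.108 to 0.155 CPM. These limits cover counting error only, as the reads carry no molecular identifiers. Counts of eGFP were 869 to 1081 in GFP High, 282 to 662 in GFP Low and 0 to 16 in RFP, and counts of tdTomato were 0 to 2, 16 to 35 and 46 to 94. All 10 oocyte markers (Zp1, Zp2, Zp3, Gdf9 and others) were present. Their summed level was 8204 to 9060 CPM in GFP High, 7452 to 7770 in GFP Low and 7439 to 8015 in RFP. In this sum every GFP High library lay above all others. Single markers were mixed: Gdf9, Ooep and Mos were higher in GFP High than in RFP without overlap. The rest, Bmp15 and Nlrp5 among them, overlapped. The 18 cumulus and granulosa markers summed to 9.44 to 64.1 CPM in GFP High, 15.7 to 60.4 in GFP Low and up to 82.4 in RFP, and GFP High 2 had 0 counts of Vcan, Ptx3, Inha and Tnfaip6. Leukocyte markers (8 of 10 in the tables) summed to 0.0814 to 5.21 CPM and oviduct markers (3 of 5) to 0 to 2.55 CPM.

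Levels of different genes were compared only after division by gene length (CPM per kb), except where mean CPM is named. For 50 of the 52 members this length is that of all annotated exons together. The length of the transcripts present in eggs was not determined, so orders between genes depend on the annotation. Psmd4, a ubiquitin receptor of the base, had the highest level of the 52 members. It was at 1251, 1427 and 1140 CPM in GFP High 1, 2 and 3, 1091, 1144 and 1262 CPM in GFP Low, and 992.3, 1167 and 1089 CPM in RFP. Its mean of 418 ± 44.9 CPM per kb (SD, n = 9) exceeded that of 99.5% of the 11104 protein-coding genes with a mean of at least 1 CPM. It alone made up 33.6% to 41.5% of the summed level per length of the regulatory particle. Next came Psmc1, an ATPase of the base, with 175 ± 15.1 CPM per kb, Psmg4, a core assembly chaperone, with 111 ± 22.4, Psma7 of the alpha ring with 92.4 ± 5.73 and Psmd7, the partner of the lid deubiquitinase, with 87.8 ± 7.59. Psmg4 stood this high only per length, which is 555 bases. In mean CPM it had 61.8, below Psma7 (283.8) and Psmd7 (198.5). The level of Psmd4 was 2.39 times that of Psmc1, and the ranges of Psmd4 and Psmc1 did not overlap over the 9 libraries. Of the 51 pairs of neighbours in the order of levels, only 3 had ranges that did not overlap: Psmd4 above Psmc1, Psmc1 above Psmg4, and Psmb1 above Psmd14.

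Promoter windows are shown for the most abundant member (Psmd4), the lid subunit closest to absence (Psmd13), the beta subunit with the smallest p between GFP High and GFP Low (Psmb6) and the ubiquilin with the lowest p against RFP (Ubqln1). They are RefSeq windows on GRCm38.p6 from 250 bases before to 50 after the annotated start, written 5′ to 3′ on the strand of the gene. Capitals mark any match, on either strand, to TGACNNNGC (the antioxidant response element, bound by NFE2L1, the factor known for raising proteasome genes), CCAAT or GGGCGG. The motifs do not overlap in these 4 windows.

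Psmd4 (chr3:95042565-95042864, minus strand): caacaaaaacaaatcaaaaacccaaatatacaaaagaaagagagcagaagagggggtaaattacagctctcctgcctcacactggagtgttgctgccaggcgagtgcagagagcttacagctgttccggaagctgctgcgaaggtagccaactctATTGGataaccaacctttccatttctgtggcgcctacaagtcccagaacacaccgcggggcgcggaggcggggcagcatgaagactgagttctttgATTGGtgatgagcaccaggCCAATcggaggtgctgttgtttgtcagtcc

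Psmb6 (chr11:70525107-70525406, plus strand): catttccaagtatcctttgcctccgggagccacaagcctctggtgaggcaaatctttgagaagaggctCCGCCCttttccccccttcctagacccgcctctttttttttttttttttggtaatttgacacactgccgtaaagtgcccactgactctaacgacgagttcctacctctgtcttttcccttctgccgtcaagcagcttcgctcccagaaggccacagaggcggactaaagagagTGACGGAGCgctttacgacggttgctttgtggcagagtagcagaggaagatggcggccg

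Ubqln1 (chr13:58215604-58215903, minus strand): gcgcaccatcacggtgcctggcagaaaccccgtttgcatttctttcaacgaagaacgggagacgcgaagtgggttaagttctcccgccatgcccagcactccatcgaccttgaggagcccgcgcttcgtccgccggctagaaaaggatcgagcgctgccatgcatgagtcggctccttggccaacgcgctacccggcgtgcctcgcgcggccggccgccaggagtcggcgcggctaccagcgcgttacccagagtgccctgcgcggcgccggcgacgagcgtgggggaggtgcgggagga

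Psmd13 (chr7:140882144-140882443, plus strand): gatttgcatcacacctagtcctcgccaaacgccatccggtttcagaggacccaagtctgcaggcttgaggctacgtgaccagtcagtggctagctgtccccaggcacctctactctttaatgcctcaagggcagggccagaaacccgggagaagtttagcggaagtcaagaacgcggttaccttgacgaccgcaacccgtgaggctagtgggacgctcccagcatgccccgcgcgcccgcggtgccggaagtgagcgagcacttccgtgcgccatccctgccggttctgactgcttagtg

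Psmd4 held 3 CCAAT matches, 1 of them before the start and 2 at or after it. Psmb6 held a TGACNNNGC match just before the start and a GGGCGG match further upstream. The windows of Ubqln1 and Psmd13 held none of the 3 motifs, which says only that these letters are not in these 300 bases. Of the 52 members, 43 were matched to a window by symbol, with 46 windows in all. TGACNNNGC was found in 13.0% of member windows against 12.4% of all 32841 windows, CCAAT in 30.4% against 37.4%, and GGGCGG in 52.2% against 35.7%. The members with TGACNNNGC were Psmb5, Psmb6, Psmc6, Psmd12, Psmd9 and Psme4.

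**Figure D1:**
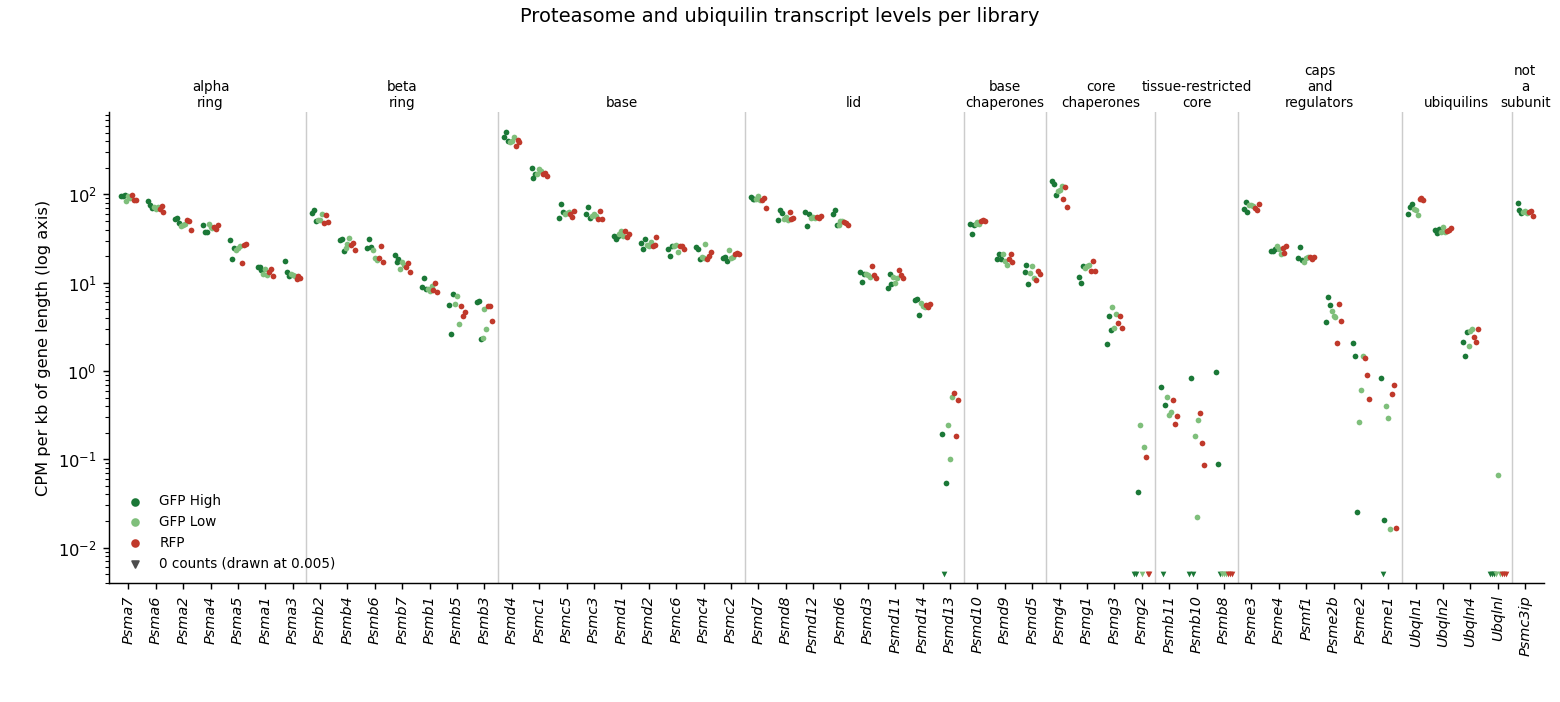
Level of each of the 52 members in the 9 libraries, in CPM per kb of gene length on a log axis, grouped by class and coloured by group; libraries with 0 counts are drawn at 0.005. Psmd4 stands above all others with a mean of 418 CPM per kb, and the libraries of the 3 groups lie close together for most members.

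In the core particle, levels of the alpha ring ran 7.28-fold, from 12.7 CPM per kb for Psma3 to 92.4 for Psma7, with a median of 41.9. The beta ring had a lower median, 16.5 CPM per kb, and ran from 4.41 for Psmb3 to 55.1 for Psmb2. Of the subunits with catalytic sites, Psmb6 (caspase-like) had 22.7 ± 4.67 CPM per kb, Psmb7 (trypsin-like) 16.5 ± 2.26 and Psmb5 (chymotrypsin-like) 5.12 ± 1.60 (SD, n = 9). Without division by length some of these orders turned. In mean CPM, Psma5 (32.1) and Psma1 (40.2) lay below Psma3 (49.4), and Psmb7 (56.4) lay above Psmb6 (42.5). Psmb5 was thus among the least abundant core subunits, with 58 to 166 counts per library. Near-identical copies bear on these levels: reads equal to 13.7% of the Psmb5 counts were assigned to the pseudogene Gm3375, which is 98.9% identical to Psmb5 over 796 bases. For Psma3 the pseudogene Gm13835, identical over 685 bases, had 28.5% as many counts as the gene, and for Psma4 Gm6542 had 12.5%. How reads shared by a gene and its copy were counted is not given in the sources used here, so the levels of these genes are uncertain.

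The base of the regulatory particle had a median of 34.8 CPM per kb, and its least abundant subunit was the ATPase Psmc2 with 20.2 ± 1.76. The lid had a median of 31.6 CPM per kb and ran from Psmd7 down to Psmd13. Psmd14, the deubiquitinase of the lid, had 5.60 ± 0.656 CPM per kb (SD, n = 9). Psmd13, a structural lid subunit, had few counts: 18, 0 and 4 in GFP High 1, 2 and 3, 16, 9 and 48 in the GFP Low libraries, and 50, 14 and 43 in those of RFP. Its log2 fold change in GFP High against RFP was -2.26 (SE 1.41, edgeR adjusted p = 0.997). The groups overlapped, and the mean of 0.258 ± 0.208 CPM per kb was 340-fold below that of Psmd7. No near-identical copy of Psmd13 was found. On the opposite strand, Sirt3 overlaps 10.1% of its exons and had 227 counts in all 9 libraries together, and whether reads were counted by strand is not stated.

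Assembly chaperones spanned as wide a range. Psmg4 had 111 CPM per kb, Psmg1 14.2 ± 2.32 and Psmg3 3.62 ± 0.998 (SD, n = 9). Psmg2, the partner of Psmg1 in the first step of ring assembly, had 0 to 5 counts in any library. The length given for Psmg2 in the deposited tables, 1059 bases, was shorter than the 1738 bases of its exons in GENCODE M21. Psmb8 differed too, with 2736 against 3381 bases. The levels per length of both are uncertain for that reason. The base chaperones had 46.5 (Psmd10, gankyrin), 18.8 (Psmd9) and 12.8 CPM per kb (Psmd5). Exons of Psmd9 overlap the opposite-strand gene Gm26745 over 25.5% of their length, and Gm26745 had 0 counts.

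Core subunits known from immune cells and thymus were among the least abundant members. Psmb8, the inducible counterpart of Psmb5, had 72 counts in GFP High 1, 6 in GFP High 2 and 0 in the other 7 libraries. Only GFP High 1 and 2 were thus above the 3-count limit, and the leukocyte markers summed to 4.71 CPM in GFP High 1 and 0.0814 CPM in GFP High 2, with 4.44 and 5.21 CPM in GFP Low 3 and 1, where Psmb8 had 0 counts. The source of these Psmb8 counts was not tested. In such pools fewer cells of a type and less RNA per cell cannot be told apart. Psmb10 had 0 to 35 counts, and Psmb11, the thymus subunit, 0 to 87. Among the caps, Psme3, the nuclear activator, had 72.6 ± 6.08 CPM per kb and Psme4, the activator known from the testis, 23.7 ± 1.79. Psmf1, a core regulator, had 19.5 ± 2.22. Psme1 and Psme2, subunits of the interferon-inducible activator, had 0.313 and 0.972 CPM per kb. Psme2 and Psme2b are 99.4% identical over 794 bases, so the split of reads between them is uncertain. Psmc3ip had 64.5 ± 6.28 CPM per kb, and 21.2% of its exons overlap Mlx on the opposite strand, which had 7512 counts in all 9 libraries together.

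The coefficient of variation over the 9 libraries was under 20% for 37 of 52 members. The share of all genes under 20% was not computed, so this count marks no trait of the members. Together the members took 0.552% to 0.604% of the counts of a library. In all, 46 members had a mean of at least 1 CPM, 41 of at least 10 CPM and 19 of at least 100 CPM.

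Ubqln1 (ENSMUSG00000005312, GRCm38 chromosome 13, 58176156 to 58215653, minus strand) had the most abundant ubiquilin transcript, at 74.7 CPM per kb. Its level was 394.4, 397.2 and 385.1 CPM in RFP 1, 2 and 3. It was 300.6, 294.5 and 254.5 CPM in GFP Low 1, 2 and 3, and 267.2, 319.9 and 346.9 CPM in GFP High 1, 2 and 3. Every GFP Low and every GFP High library lay below every RFP library, while GFP High and GFP Low overlapped. The lower level in GFP Low was known when the members were chosen.

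Between GFP Low and RFP the log2 fold change of Ubqln1 was -0.47 (SE 0.08), a level 27.7% lower. edgeR's quasi-likelihood test over 15199 genes gave an unadjusted p of 8.11e-05 and an adjusted p of 0.308, so Ubqln1 was not called. DESeq2 on the same counts gave -0.467 with an adjusted p of 0.000393, and edgeR without the filter on low counts gave -0.475 with an adjusted p of 0.000459. For Ubqln1 the log2 fold change in the authors' deposited table is -0.467, and the adjusted p there is 0.000388. The call therefore rests on the test and filter used, and over the 15 alternatives the adjusted p ran from 0.000393 to 1.00. In each fit that left out 1 library the estimate stayed negative, between -0.40 and -0.51, and the adjusted p was 0.240 to 1.00.

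Between GFP High and RFP the log2 fold change of Ubqln1 was -0.33 (SE 0.11, unadjusted p = 0.0116 and adjusted p = 0.997 in edgeR). The comparison uses the same RFP libraries as the one with GFP Low. Between GFP High and GFP Low it was 0.14 (SE 0.11, edgeR adjusted p = 0.998), and 0.23, 0.05 and 0.06 without GFP High 1, GFP High 3 and GFP Low 3. The other ubiquilins gave no such values. Ubqln2, the X-linked ubiquilin, had 123.2 to 142.1 CPM in every library, with a coefficient of variation of 4.90%, the lowest of the ubiquilins, and overlapping groups. Its log2 fold change was -0.04 (SE 0.10) in GFP High and -0.03 (SE 0.09) in GFP Low against RFP. Ubqln4 had 6.06 to 12.4 CPM, and its groups overlapped in all 3 comparisons. Ubqlnl had 4 counts in GFP Low 2 and 0 elsewhere.

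**Figure D2:**
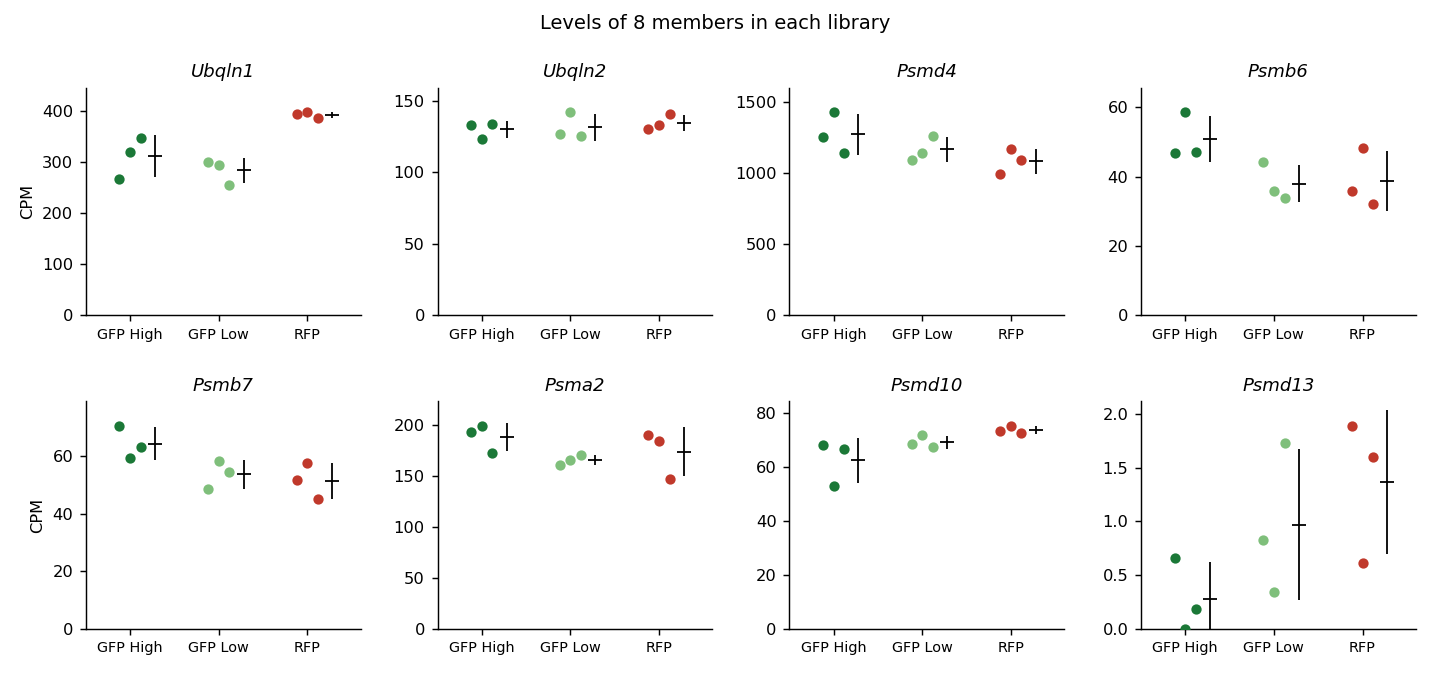
Level in CPM of 8 members in each library (points, coloured by group) with the mean and SD of each group (bars, n = 3); the lower bar of Psmd13 in GFP High is clipped at 0. Ubqln1 is at 385.1 to 397.2 CPM in RFP and at or below 346.9 CPM in every GFP library, whereas Ubqln2 is level across groups.

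Across all 52 members, 48 passed the filter on low counts in each comparison, and Psmb8, Psmb10, Psmg2 and Ubqlnl did not. GFP High was compared with RFP to look for transcripts that differ between the eggs with the strongest green signal and the red eggs. None of the 48 passed an adjusted p of 0.05 in edgeR (0.0135% of all 14829 genes tested did), and 2 had an unadjusted p under 0.05, Ubqln1 and Psmd4, against 4.09% of all genes. DESeq2 called 12 of the 27348 genes it tested, and 0 members too. The groups did not overlap for 1 member that was higher in GFP High (Psmb7) and 3 that were lower (Ubqln1, Psmc2, Psmd10), where 4.88% and 6.99% of all genes did the same. The median log2 fold change was 0.08 for the members and -0.01 for all genes.

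Of the 14 core subunits, 13 had a positive estimate in GFP High against RFP, with a median log2 fold change of 0.14, and 10 of 17 regulatory particle subunits had one, with a median of 0.05. Estimates were positive for 49.3% of all genes. None of these subunits was called. The summed oocyte markers, though not each single marker, were also higher in every GFP High library than in every RFP and GFP Low library. Their part in these estimates was not tested. Without GFP High 1 or without GFP High 2 the core count was 11, and the median of the regulatory particle was negative (-0.05 without GFP High 1). Psmb7 had 70.5, 59.2 and 63.1 CPM in GFP High 1, 2 and 3 against 51.5, 57.7 and 44.9 CPM in RFP, a log2 fold change of 0.33 (SE 0.15). The highest RFP library lay just under the lowest GFP High library. Psmb6 had 46.8, 58.6 and 47.1 CPM in GFP High against 35.7, 48.4 and 31.9 in RFP, a log2 fold change of 0.40 (SE 0.19), and here the groups overlapped. Psmg4 had an estimate of 0.41 (SE 0.22), Psma3 of 0.32 (SE 0.17) and Psmd6 of the lid of 0.27 (SE 0.14). Psmd4, whose counts are given above, had an estimate of 0.24 (SE 0.10, unadjusted p = 0.0357 in edgeR), with overlapping groups. Without GFP High 2 the estimate for Psmd4 was 0.14, and that for Psmg4 was 0.65 without RFP 2 and 0.24 without RFP 3. For all of these the edgeR adjusted p was 0.997.

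In GFP High against RFP, 17 of the 48 members tested had a lower estimate. Besides Ubqln1, only Psmc2, an ATPase of the base, and the chaperone Psmd10 were lower without overlap. Among those with overlapping groups were Psmd11 (-0.28, SE 0.17) and Psmg1 (-0.27, SE 0.24). Psmc2 had 88.4 to 97.1 CPM in GFP High and 106.4 to 108.0 CPM in RFP, a log2 fold change of -0.18 (SE 0.11). Psmd10 had 67.9, 52.8 and 66.5 CPM in GFP High, 68.4, 71.8 and 67.2 CPM in GFP Low, and 73.1, 75.2 and 72.5 CPM in RFP. Its GFP libraries were below every RFP library by narrow margins, with log2 fold changes of -0.23 (SE 0.14) in GFP High and -0.09 (SE 0.09) in GFP Low.

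**Figure D3:**
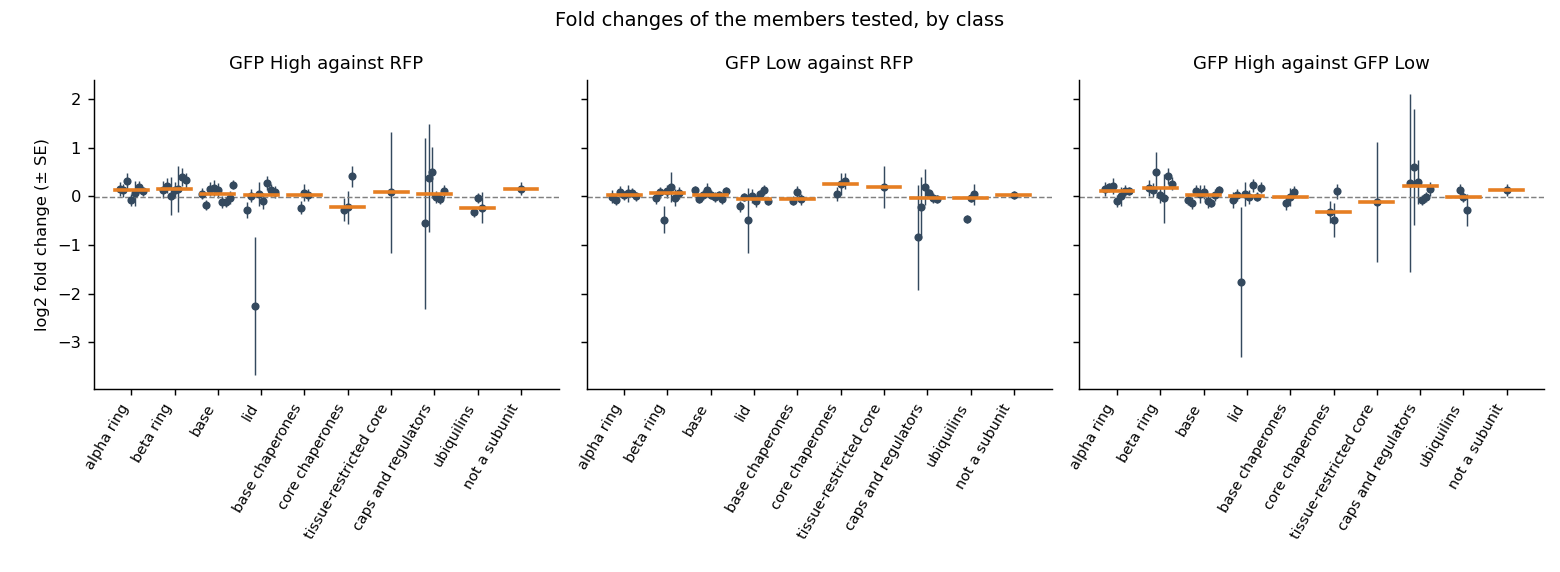
Log2 fold change (points) with its SE (bars) of the 48 members tested in each of the 3 comparisons, by class, with the median of each class (orange lines). Estimates lie close to 0 for the well expressed classes, and the wide bars belong to Psmd13, Psmb11, Psme1 and Psme2, which had few counts.

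The same question was put to weakly green eggs, GFP Low against RFP. None of the 48 members tested passed the threshold in edgeR (0.0197% of all 15199 genes did), and 1, Ubqln1, had an unadjusted p under 0.05, against 2.62% of genes. DESeq2 called 10 of the 29368 genes it tested, and among the members only Ubqln1. No member was higher in GFP Low without overlap (3.59% of all genes) and 2 were lower, Ubqln1 and Psmd10 (4.1% of all genes). The median log2 fold change was 0.02 for the members and -0.0041 for all genes. Of the core subunits 8 of 14 had a positive estimate, and of the regulatory particle 9 of 17, whose median ran from -0.02 to 0.02 over the fits. Psmb3 of the beta ring was at 5.47, 11.6 and 6.93 CPM in GFP Low against 12.4, 12.7 and 8.54 in RFP, a log2 fold change of -0.48 (SE 0.27), with overlapping groups. It was -0.27 without GFP Low 1 and -0.85 without GFP Low 2. Psmc1 had an estimate of 0.13 (SE 0.08), Psmg4 of 0.31 (SE 0.17) and Psmd11, a lid subunit, of -0.20 (SE 0.11). These also moved when 1 library was left out, Psmc1 to 0.08 without GFP Low 2, Psmg4 to 0.54 without RFP 2 and 0.14 without RFP 3, and Psmd11 to -0.14 without GFP Low 2 and -0.12 without RFP 1.

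Strongly and weakly green eggs were then set against each other, GFP High against GFP Low. No gene of 14785 was called in edgeR (0%), so no member was, and DESeq2 called 4 of 27137 genes, none of them a member. Psmb6 was the only member with an unadjusted p under 0.05, against 3.77% of all genes. It had 44.2, 35.9 and 33.8 CPM in GFP Low, below each GFP High library, a log2 fold change of 0.42 (SE 0.17, unadjusted p = 0.0291 and adjusted p = 0.998 in edgeR). Psmb6, Psmb7 and Psma2 were higher in GFP High without overlap (4.69% of all genes were), and Psmd1, a scaffold of the base, was lower (6.84% of all genes were). Psma2 had 193.0, 198.9 and 172.4 CPM in GFP High and 160.2, 165.7 and 170.4 in GFP Low, a log2 fold change of 0.19 (SE 0.09). Of the core subunits 11 of 14 had a positive estimate, with a median of 0.15, and of the regulatory particle 9 of 17, with a median of 0.03. The count for the core was 10 to 12 over the alternatives, whereas the median of the regulatory particle was negative without any single GFP High library (lowest -0.05, without GFP High 1) and without GFP Low 2.

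The balance of core to regulatory particle was taken as the ratio of their summed levels per length in each library, as a description with no test. It was 0.422, 0.391 and 0.398 in GFP High 1, 2 and 3, 0.395, 0.385 and 0.382 for GFP Low, and 0.407, 0.406 and 0.381 in the RFP libraries. The groups overlapped, with means of 0.404 ± 0.0167, 0.387 ± 0.00664 and 0.398 ± 0.0146 (SD, n = 3). Since Psmd4 weighs heavily in the lower term, the ratio without it, chosen after seeing the data, was 0.629 to 0.678 in GFP High, 0.600 to 0.625 in GFP Low and 0.602 to 0.649 in RFP. Every GFP High library then lay above every GFP Low library, and both groups overlapped RFP. The same order of GFP High over GFP Low was found without division by length (lowest GFP High library 0.329, highest GFP Low library 0.324), with the base chaperones counted in the regulatory particle (0.369 and 0.367) and from medians (0.704 and 0.656). GFP High again overlapped RFP in each of these, and with sums over all subunits GFP High 2 lay below GFP Low 1. These settings recompute the same libraries, so the repeated order is no separate support. The summed core level was 439.9 to 499.3 CPM per kb in GFP High, 426.0 to 441.0 in GFP Low and 403.4 to 450.9 in RFP.

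**Figure D4:**
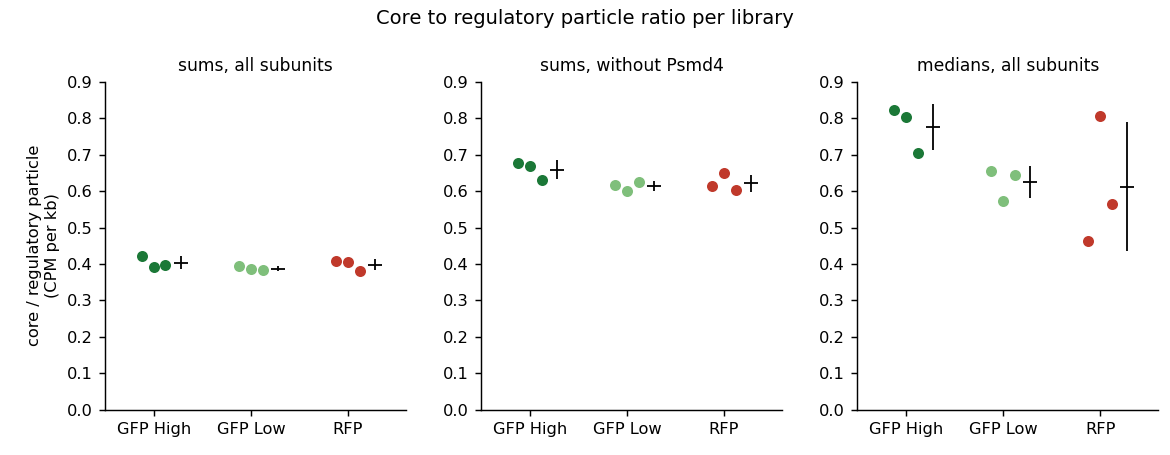
Core to regulatory particle ratio in each library (points, by group) with the mean and SD of each group (bars, n = 3), from summed CPM per kb of all subunits (left), without Psmd4 (middle) and from medians (right). With sums over all subunits, every library lies between 0.381 and 0.422.

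Other genes of the pathway, from a list of factors that work beside the proteasome, were read in the same fits. Of 43 that were counted, 42 were tested, and 0 were called in any of the 3 comparisons. In GFP High against RFP, GFP Low against RFP and GFP High against GFP Low, 4, 3 and 3 of the 42 had an unadjusted p under 0.05, where 4.09%, 2.62% and 3.77% of all genes did. In the same order, 3, 0 and 2 were higher without overlap between the groups, where 4.88%, 3.59% and 4.69% of all genes were. Lower without overlap were 1, 4 and 4, where 6.99%, 4.1% and 6.84% of all genes were. Their median log2 fold changes were -0.03, 0.01 and -0.01. Subunits of the regulatory particle that lack a Psm symbol had levels like those of the base and lid: Adrm1, a ubiquitin receptor, had 23.2 CPM per kb and Sem1 29.1. Pomp, the core maturation factor, had 12.1 CPM per kb. Ecpas, an adaptor of the proteasome, had 73.4 and the shuttle Rad23b 72.3. The polyubiquitin gene Ubb, at 641 CPM per kb, stood above Psmd4.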

How the data were processed

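The 9 libraries of poly-A RNA from pooled metaphase II eggs fell into 3 groups. Per the submitters' processing notes, fastp, HISAT2 2.0.5, featureCounts 1.5.0-p3 and DESeq2 1.20.0 were used with the build mm10; their roles and settings are not given in the sources used here. The authors deposited 3 tables, 1 per pair of groups, with the raw read count of each gene per library, and these counts entered every test. The deposited FPKM values entered only a recomputed core to regulatory particle ratio, which they leave the same by construction. The deposited size-factor normalised signal was not used. The authors' deposited log2 fold change and p-value columns are quoted only where their table is named.

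The tables were joined by gene identifier into 30153 genes, and 178 genes that a table lacked were set to 0 there. Each pair of groups was fitted on its 6 libraries with edgeR 4.0.16 in R 4.3.3 (filterByExpr, TMM, glmQLFit and glmQLFTest, no covariate). Adjustment was by Benjamini-Hochberg over all genes tested, with a threshold of 0.05. The code was tested on simulated data for GFP Low against RFP only. The changes planted there were larger than those given here for well expressed members, so that test does not cover changes of this size. DESeq2 1.42.0 and limma 3.58.1 (voom) were alternatives. CPM were scaled over the 9 libraries, and CPM per kb used the deposited gene length. All 52 members had the same position in GENCODE M21. Near-identical copies were transcripts with at least 95% identity over at least 200 bases by blastn.

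Members, lists and alternatives were chosen with earlier results of these data known. Named genes are every ubiquilin, Psmc3ip, the highest and lowest member of each class by level per length, the 5 members with the smallest p in each comparison and every member called. The others that are named were chosen after their values were seen. Same-numbered replicates did not deviate together (correlations of -0.11 to 0.12), so the numbers were not taken as pairs.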

Additional observations from a re-analysis of the deposited data

How the results depend on the processing

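The settings changed the number of genes called over the whole table. At most 34 of 29374 genes were called in any fit, so the number of members called could hardly move. That number therefore says little about how stable the members are. In GFP High against RFP, where 2 genes were called, DESeq2 called 12, edgeR without the filter on low counts 16, limma-voom 1 and the fit with the replicate number as a block 4, and leaving out 1 library gave 0 to 2. In GFP Low against RFP, where 3 were called, DESeq2 called 10, the unfiltered fit 34 and limma-voom 1, and leaving out 1 library gave 2 to 3. In GFP High against GFP Low, where 0 were called, DESeq2 called 4 and the unfiltered fit 16, and leaving out 1 library gave 0 to 1, the 1 being without GFP High 3. Members were called only in GFP Low against RFP, 1 each by DESeq2 and by the unfiltered fit, Ubqln1 both times, with log2 fold changes of -0.467 and -0.475. With the replicate block 0 members were called and Ubqln1 had -0.47 (edgeR adjusted p = 0.594) there; the numbers mark no stated pairing. The 16 fold changes followed for single members kept their direction in all 240 alternative values. They were those of Ubqln1 and of the members with the smallest p in each comparison of these same data. The alternatives refit the same or nearly the same libraries, so the kept directions say little about how firm these estimates are. The ratio of core to regulatory particle in GFP High, GFP Low and RFP was 0.339, 0.321 and 0.330 without division by length, 0.776, 0.625 and 0.612 from medians, 0.379, 0.362 and 0.370 with base chaperones counted in the regulatory particle, and 0.658, 0.614 and 0.621 without Psmd4. The deposited FPKM values give the same ratio by construction, as they share the counts and gene lengths. Psmd13, Psmg2, Psmb8, Psmb10, Psme1 and Ubqlnl had too few counts for a difference to be read at this depth.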
